A study of Mus musculus with 6 samples.

Results

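The Pax, myogenic regulatory factor (MRF) and MEF2 families of transcription factors were followed in cultures of muscle satellite cells (MuSCs), the stem cells of skeletal muscle, from control mice and from mice labelled *Piezo1* cKO. From the 20654 genes of the count table, 9 were chosen by symbol: *Pax3* and *Pax7*, the MRF genes *Myf5*, *Myf6*, *Myod1* and *Myog*, and the MEF2 genes *Mef2a*, *Mef2c* and *Mef2d*. RNA from 3 control libraries was compared with RNA from 3 libraries labelled *Piezo1* cKO, called cKO-labelled here. MuSCs of the C57BL/6 background were sorted as VCAM1-positive cells that lacked CD31, CD45 and Sca1, and were grown for 3 d on Matrigel in medium with 30% foetal bovine serum and 10 ng/ml basic fibroblast growth factor. According to the paper, cKO mice carried floxed *Piezo1* alleles together with *Pax7*CreERT2/+, a tamoxifen-dependent Cre placed at the *Pax7* locus. For the RNA-seq the paper calls the other group control and, in the legend on gene set enrichment of these data, *Pax7*CreERT2/+, whereas the labels call the controls wild type. Tamoxifen was given to the mice, and 1 μM 4-hydroxytamoxifen was present in the cultures of both groups. Ages were not given in the sources used here, and nothing there says whether a library came from 1 animal or from several, so p-values measure the spread between these libraries, which may be technical.

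Pax3 and Pax7 are paired box factors of muscle progenitors, and Pax7 marks satellite cells. The MRFs are basic helix-loop-helix (bHLH) factors that bind E-boxes (CANNTG) as dimers with E proteins. Myf5 and MyoD mark activated and proliferating myoblasts, myogenin (*Myog*) marks their commitment to differentiation, and MRF4 (*Myf6*) is a factor of late differentiation and of myofibres. MEF2 proteins are MADS box factors that bind an A/T-rich site, act with the MRFs on the genes of the contractile apparatus, and are held in check by class IIa histone deacetylases.

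No member passed the threshold for a difference between the groups. Of the 9 genes, 6 (*Pax7*, *Myf5*, *Myod1*, *Myog*, *Mef2a* and *Mef2d*) had enough counts to be tested in edgeR, and 0 of these 6 had a Benjamini-Hochberg adjusted p under 0.05, against 0.784% of the 8551 genes tested (67 genes, with 40 above and 27 below control in the cKO-labelled libraries). At an unadjusted p under 0.05 the number was 1 of 6 (*Mef2a*), against 11.9% of all genes. In limma-voom 0 of 6 were called (0.632% of all genes), and in DESeq2 0 of the 3 that received an adjusted p (0.674% of the 4007 genes with one). As to overlap, 2 of 6 had all cKO libraries above all control libraries (*Myog* and *Mef2a*, against 8.2% of all genes), and 0 of 6 had all of them below (8.31%). Levels are given as CPM (a count scaled by the size of its library) on TMM-scaled library sizes, where TMM is the edgeR scaling that equalises the bulk of genes. Control libraries 1 to 3 held 740936, 931168 and 891531 counts, whereas cKO libraries 1 to 3 held 810096, 726378 and 769295, so that 3 counts, the floor used here, correspond to between 3.35 and 4.31 CPM. Counts come from the 3′ ends of transcripts and are not scaled by length, so shares, ratios and orders between genes are given in counts or CPM and not as levels per length.

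**Figure D1:**
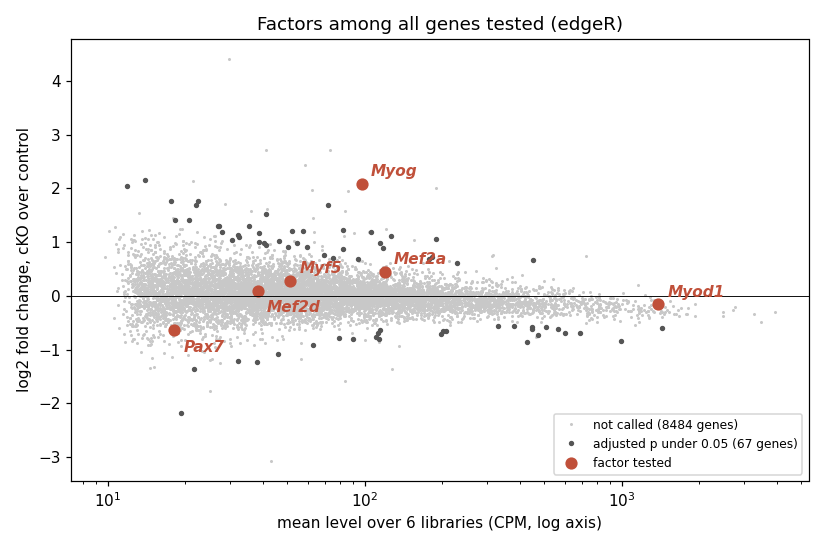
Log2 fold change (cKO-labelled libraries over control, edgeR) against the mean level over the 6 libraries in CPM on a log axis, for the 8551 genes tested. Red points mark the 6 factors tested, with *Myog* at 2.09 above most genes of its level and the others between -0.64 and 0.45, and dark points mark the 67 genes with an adjusted p under 0.05.

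*Piezo1*, the deleted gene, encodes a mechanosensitive cation channel and was close to the floor. It had 11, 5 and 6 counts in control, against 7, 12 and 9 counts in cKO-labelled libraries, which is 9.49 ± 5.53 against 12.2 ± 3.50 CPM (SD, n = 3 per group). The pooled rates had a ratio of 1.35 (95% exact interval from 0.744 to 2.47, counting error only), and the groups overlapped. Because counts are placed near the 3′ end and not by exon, *Piezo1* counts check neither the deletion nor the labels, and the RT-qPCR of *Piezo1* made in the study was not analysed here. Every direction given here follows the names of the deposited columns, and an exchange of the groups in those names was not tested and would turn each direction. In the paper a muscle differentiation signature is up-regulated in cKO, the direction that most differentiation genes have here under these names. Its figure legend splits the called genes the other way from DESeq2 here, as given in the closing section. In the edgeR fit to all 6 libraries more genes were called higher than lower, as in that legend. Besides members, the label of the cells was checked on 4 chosen genes of muscle satellite cells and myogenic cells, each detected in all 6 libraries. *Itga7*, an integrin of myogenic cells, had 167 to 236 counts per library, and *Vcam1*, the surface protein used in the sort, had 65 to 129 counts. *Cdh15*, which encodes M-cadherin, had 54 to 131 counts, and *Des*, the muscle intermediate filament desmin, had 383 to 455 counts. *Des* also belongs to the differentiation genes described further on, and other satellite cell genes, named after their values were seen, were near the floor, with *Notch1* at 0 or 1 count in every library, *Heyl* at 0 in every control library and *Chrdl2* at 1 to 10 counts.

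Among the Pax genes, *Pax7* was detected at a low level in every library and *Pax3* at a level near the floor. *Pax7* had 14.4, 29.0 and 22.4 CPM in control libraries 1 to 3 and 20.3, 6.60 and 15.9 CPM in cKO libraries 1 to 3, from 5 to 26 counts. Control 2 was the highest and cKO 2 the lowest of the 6 libraries, and the groups overlapped. The mean was 21.9 ± 7.32 CPM in control and 14.3 ± 6.98 CPM in the cKO-labelled libraries (SD, n = 3 per group), and the log2 fold change was -0.64 ± 0.36 (SE, edgeR adjusted p = 0.481), with a 95% interval from -1.35 to 0.08. The Cre allele lies at *Pax7* itself, and whether the controls carried it is given differently by the labels and the paper, so any effect of the allele on *Pax7* counts cannot be told apart from the group where they did not. *Pax3* had 4, 7 and 7 counts in control, against 5, 8 and 4 counts in cKO-labelled libraries. It did not pass the filter, and its pooled ratio was 1.00 with an exact interval from 0.485 to 2.06. Differences of *Pax3* smaller than these bounds were not detectable at this depth. In RNA of whole cultures, fewer cells that express a gene and less RNA of it per cell cannot be told apart, and this holds for every level given here.

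Of the 4 MRF genes, *Myod1* supplied most counts in every library. *Myod1* had 1091, 1225 and 1220 counts in control, against 1175, 823 and 1021 counts in cKO-labelled libraries. The mean was 1459 ± 102 CPM in control against 1310 ± 205 CPM (SD, n = 3 per group), with cKO 2 as the lowest library and overlap between the groups. Its log2 fold change was -0.15 ± 0.15 (SE, edgeR adjusted p = 0.743), with an interval from -0.45 to 0.14. This value turned positive, at 0.090, after cyclic loess normalisation.

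*Myf5*, the other MRF of proliferating myoblasts, had 28, 29 and 56 counts in control, against 38, 45 and 46 counts in cKO-labelled libraries. Its mean was 46.2 ± 17.7 CPM against 56.2 ± 6.99 CPM (SD, n = 3 per group). Control 3 was the highest library and control 2 the lowest, so the spread lay mostly within the control group. In edgeR its log2 fold change was 0.28 ± 0.23 (SE, edgeR adjusted p = 0.698), and it ran from 0.059 without control 2 to 0.64 without control 3. *Myf6* had 1, 0 and 1 counts in control, against 0, 2 and 2 counts in cKO-labelled libraries. It was under the floor in all 6 libraries, and no fold is given.

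*Myog* showed the widest relative range among the members tested. It had 40, 3 and 45 counts in control libraries 1 to 3 and 63, 203 and 92 counts in cKO libraries 1 to 3. These are 57.5, 3.35 and 53.1 CPM against 79.9, 268 and 122 CPM. All cKO libraries lay above all control libraries, but cKO 1 lay close to controls 1 and 3, and control 2 was at the floor. The mean was 38.0 ± 30.1 CPM in control and 157 ± 98.8 CPM in the cKO-labelled libraries (SD, n = 3 per group), and the exact permutation p of 0.1 (two-sided) is the smallest that 3 libraries against 3 allow. The log2 fold change was 2.09 ± 0.89 (SE, edgeR adjusted p = 0.468, unadjusted p = 0.0724), with an interval from -0.29 to 4.47, and the adjusted p ran from 0.385 to 0.820 over the alternative fits. Among the 8551 genes tested, 6 had a larger log2 fold change. The biological coefficient of variation of *Myog* between libraries was 0.853, exceeded by that of 2 genes, against a median of 0.119. Counting error alone would leave a ratio of pooled rates of 4.31 (exact interval from 3.41 to 5.51), so the interval of the fold change was set by the spread between libraries and not by depth. Without control 2 the log2 fold change was 1.51 (edgeR adjusted p = 0.735), and without cKO 2 it was 1.45 (edgeR adjusted p = 0.820).

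**Figure D2:**
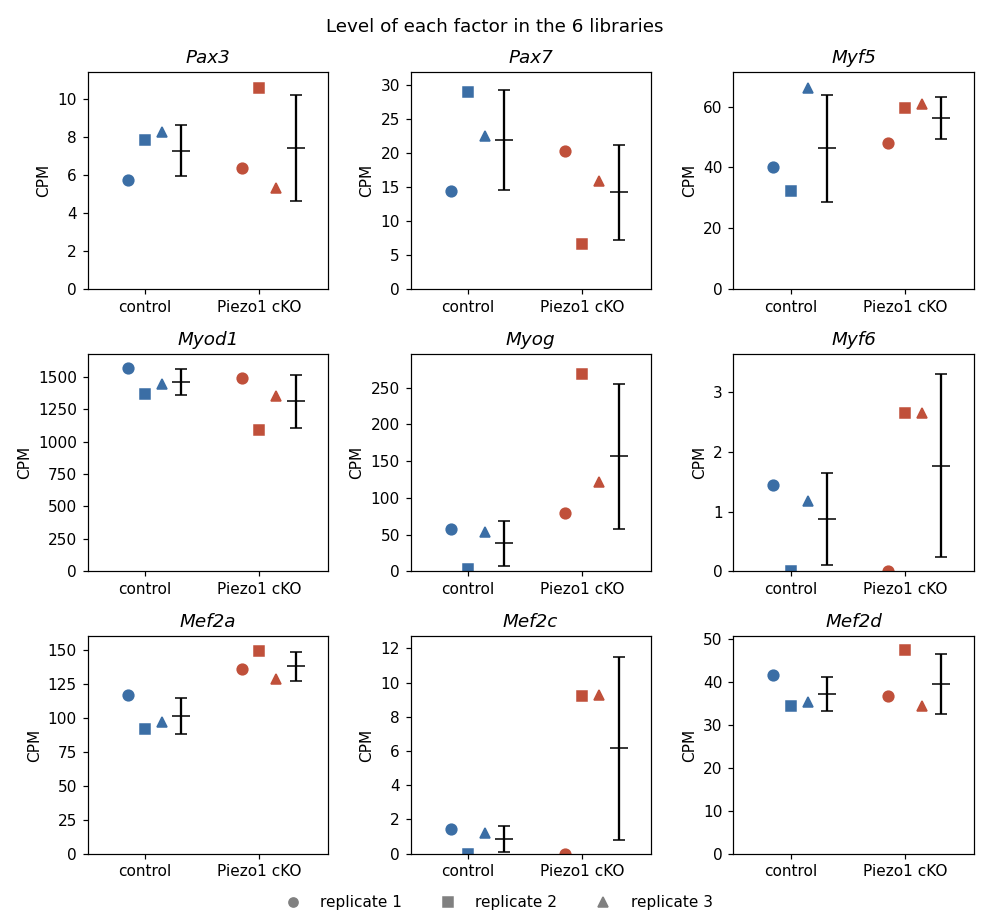
Level of each of the 9 factors in CPM (linear axes from 0, scaled separately), with 1 symbol per library and the mean ± SD of the 3 libraries of each group beside them. The groups are apart for *Myog* and *Mef2a* and overlap for the other 7, and the *Myog* points of control 2 (3.35 CPM) and cKO 2 (268 CPM) lie far from the rest of their groups.

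The make-up of the MRF counts within a library does not depend on its scaling. *Myog* made up 3.45% (exact 95% interval 2.47 to 4.67), 0.239% (0.0492 to 0.696) and 3.40% (2.49 to 4.53) of the MRF counts in control libraries 1 to 3. It made up, in cKO libraries 1 to 3, 4.94% (3.81 to 6.27), 18.9% (16.6 to 21.4) and 7.92% (6.44 to 9.63). The counting intervals of cKO 1 and of controls 1 and 3 overlapped, whereas those of control 2, cKO 2 and cKO 3 were each apart from those of every other library, with cKO 2 and cKO 3 above all controls. *Myod1* made up 94.1%, 97.5% and 92.3% of MRF counts in control and 92.1%, 76.7% and 87.9% in the cKO-labelled libraries, and was thus lowest where *Myog* was highest.

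**Figure D3:**
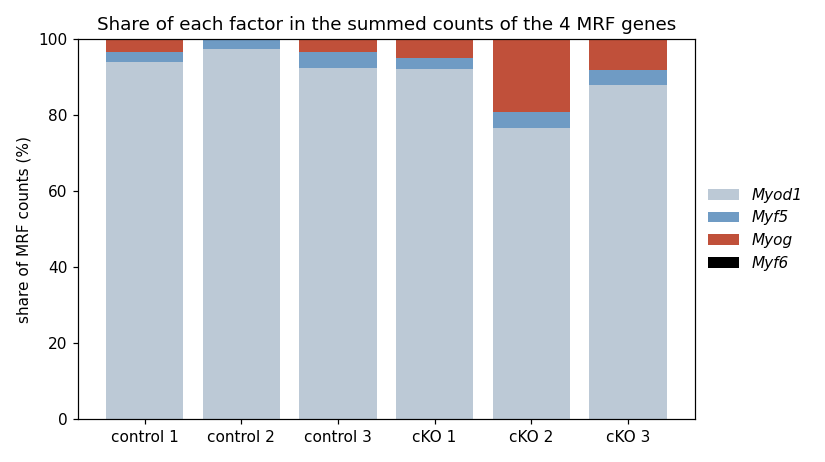
Share of each MRF gene in the summed counts of the 4 MRF genes (%, stacked bars from 0 to 100) in the 6 libraries. *Myog* ranges from 0.239% in control 2 to 18.9% in cKO 2, and *Myf6*, at most 0.186%, is too small to see.

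On the log2 scale, with 0.5 added to each count, the ratio of *Myog* to *Myod1* was -5.98 ± 2.14 in control and -3.23 ± 1.12 in the cKO-labelled libraries (SD, n = 3 per group). The difference was 2.75 (exact permutation p = 0.1, two-sided, the smallest possible, and 0.3 after Benjamini-Hochberg adjustment over the 3 ratios compared), and it was 1.52 without control 2. The ratio of *Myog* to *Pax7* differed by 3.26 (exact permutation p = 0.2, adjusted 0.3) and that of *Pax7* to *Myod1* by -0.51 (exact permutation p = 0.4, adjusted 0.4), both with overlap between the groups. For *Myog* to *Pax7* the overlap was small, with 1.948 in control 1 and 1.944 in cKO 1. With 1 count added in place of 0.5, that ratio differed by 3.16 without overlap (exact permutation p = 0.1, the smallest possible). Single libraries weighed on these differences as well. That of *Myog* to *Pax7* was 1.76 without control 2 and highest, at 4.2, without control 1, whereas that of *Pax7* to *Myod1* was -0.83 without control 1 and -0.19 without cKO 2.

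*Myog* lies on the plus strand of chromosome 1 of GRCm38, from 134289989 to 134292548, with 3 exons, and *Mef2a* on the minus strand of chromosome 7, from 67231163 to 67372858. The 250 bases before the transcription start in RefSeq are shown for these genes because they are the members whose libraries did not overlap between the groups. Capitals mark matches to the motifs searched on both strands, namely the E-box CANNTG, the MEF3 site TCAGGTTT, and the MEF2 core, which is TA, then 4 bases that are each A or T, then TA. The *Myog* window is chr1:134289754-134290003 on the plus strand, and its last bases lie inside the first exon of the GENCODE annotation. The *Mef2a* window is chr7:67372859-67373108 on the minus strand.
Myog: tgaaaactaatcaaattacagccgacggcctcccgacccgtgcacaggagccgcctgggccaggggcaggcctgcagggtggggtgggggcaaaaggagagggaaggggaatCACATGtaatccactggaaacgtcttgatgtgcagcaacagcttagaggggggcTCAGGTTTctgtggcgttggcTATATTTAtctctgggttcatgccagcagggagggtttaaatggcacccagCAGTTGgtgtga
Mef2a: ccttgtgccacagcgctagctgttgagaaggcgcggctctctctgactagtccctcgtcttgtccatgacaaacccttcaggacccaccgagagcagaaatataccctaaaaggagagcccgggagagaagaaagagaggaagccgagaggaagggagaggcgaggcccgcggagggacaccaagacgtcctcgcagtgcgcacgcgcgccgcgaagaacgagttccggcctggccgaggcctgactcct

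In the *Myog* window the E-boxes CACATG and CAGTTG begin 138 and 12 bases before the RefSeq start, the MEF3 letters 84 bases before it, and the MEF2 core TATATTTA 63 bases before it. An E-box of any kind was present in 66.2% of the 32851 mouse promoter windows of this length, the MEF2 core in 8.56% and the MEF3 letters in 1.18%. The MEF2 core was added to the search after the *Myog* sequence had been seen, because the longer MEF2 consensus, present in 2.92% of windows, was not matched there. The *Mef2a* window held none of these letters, nor did the windows of *Pax7*, *Myf5* and *Mef2d*. Of the 3 RefSeq windows of *Mef2c*, 2 held an E-box and 1 a MEF2 core. RefSeq sequences (GRCm38.p6) were matched for 6 of the 9 members, and those of *Pax3*, *Myod1* and *Myf6* were not analysed here.

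Among the MEF2 genes, *Mef2a* had more counts in every cKO library than in any control library. Its counts were 81, 82 and 82 in control, against 107, 113 and 97 in cKO-labelled libraries, or 116, 91.5 and 96.8 CPM against 136, 149 and 129 CPM. The means were 102 ± 13.2 and 138 ± 10.5 CPM (SD, n = 3 per group), a fold of 1.36, and the groups did not overlap (exact permutation p = 0.1, the smallest possible). This is a log2 fold change of 0.45 ± 0.16 (SE, edgeR unadjusted p = 0.00653, adjusted p = 0.187), with an unadjusted interval from 0.13 to 0.77. In the 14 alternative fits it was positive each time, from 0.38 to 0.55, with adjusted p from 0.108 to 0.618. The 3′ end of *Mef2a* overlaps *Lysmd4* on the other strand, and 5.31% of its 31-base words occur in other genes, so where strand was not used some reads of the 2 genes cannot be told apart. *Lysmd4* itself had 1 to 7 counts per library.

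*Mef2d* had 29, 31 and 30 counts in control, against 29, 36 and 26 counts in cKO-labelled libraries. The means were 37.2 ± 3.89 and 39.6 ± 6.99 CPM (SD, n = 3 per group), with the cKO libraries spanning the whole range of the controls. For *Mef2d* the log2 fold change was 0.096 ± 0.25 (SE, edgeR adjusted p = 0.929), with an interval from -0.40 to 0.60, and it changed sign, to -0.057, without cKO 2. The 3′ end of *Mef2d* overlaps *1700113A16Rik* on the other strand, and that gene had 0 or 1 counts per library. Of the 31-base words of *Mef2d*, 8.27% occur in other genes.

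*Mef2c*, a MEF2 gene of differentiating muscle, was under the floor in all control libraries. It had 1, 0 and 1 counts in control, against 0, 7 and 7 counts in cKO-labelled libraries, and did not pass the filter. In edgeR with no filter on low counts, all 9 members were tested and 0 were called. The pooled ratio was 7.42 with an exact interval from 1.70 to 67.3, which covers counting error only, and cKO 1 with 0 counts lay within the control group. *Mef2b*, the remaining MEF2 gene, had 1 count in control 1 and 0 elsewhere. No MRF or Pax7 transcript shared a 31-base word with another gene, and no member shared one with another member.

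Across the 6 libraries, the members varied together in part. Pearson's r of log2 CPM was 0.86 between *Myog* and *Mef2a*, -0.82 between *Myog* and *Pax7*, 0.77 between *Myog* and *Myf5*, and -0.89 between *Pax7* and *Mef2d*. It was -0.40 between *Myog* and *Myod1*. These values describe 6 libraries that also differ by group, and control 2 and cKO 2 lie at the ends of several of them.

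The genes most like each member across the libraries were taken from the 8545 other genes tested. For *Myog* they were *Idh1* (r = 0.997), *Tob1*, *Mfsd11*, *Kazald1* and *Pgam2*, and 97 genes had an r above 0.95. *Idh1* encodes a cytosolic isocitrate dehydrogenase and *Pgam2* the muscle form of phosphoglycerate mutase. *Pgam2* had 30.2, 4.46 and 21.3 CPM in control and 39.3, 74.0 and 47.7 CPM in the cKO-labelled libraries, with control 2 lowest and cKO 2 highest, as for *Myog*. For *Pax7* the genes were *Met* (r = 0.993), *Serbp1*, *Fpgs*, *Brca2* and *Nek6*. *Met*, the receptor of hepatocyte growth factor, had 160, 196 and 175 CPM in control, against 171, 128 and 159 CPM in cKO-labelled libraries. For *Mef2a* they were *Gm5617*, *Tnni2* (r = 0.992), *Tbccd1*, *Sesn3* and *Rcan2*, for *Myod1* *Phrf1*, *Nisch*, *Aldoa*, *Pkm* and *Ptma*, for *Myf5* *Sri*, *Hsd11b1*, *Ccnd2* and *Btg2*, and for *Mef2d* *Auts2*, *Drap1*, *Snhg9*, *Zfhx4* and *Tigar*. Of all these genes, *Tnni2* alone had an edgeR adjusted p under 0.05. With 6 points and 8545 genes, values of this size describe the libraries only.

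The partners of the MRFs were then examined. Of 14 E proteins and inhibitors of bHLH factors, 10 were tested, and 0 were called in either direction by edgeR, limma-voom or DESeq2. In edgeR 0.784% of all genes tested were called. The log2 fold change was positive in 6 and negative in 4, with a median of 0.15, against 0.0021 over all genes tested. At an unadjusted p under 0.05 the number was 2 (against 11.9% of all genes), *Tcf12* and *Bhlhe41*, both named after their values were seen. *Id3*, *Id2* and *Id1*, whose products sequester E proteins, were the most abundant. *Id3* had 923 ± 179 CPM in control and 856 ± 91.5 CPM in the cKO-labelled libraries, *Id2* 582 ± 70.1 and 508 ± 71.1 CPM, and *Id1* 387 ± 39.9 and 389 ± 34.1 CPM (SD, n = 3 per group). All 3 overlapped between the groups. *Tcf12*, which encodes the E protein HEB, had 114, 92.6 and 117 CPM in control, against 156, 141 and 129 CPM in cKO-labelled libraries, with a log2 fold change of 0.40 ± 0.16 (SE, edgeR adjusted p = 0.247). All cKO libraries lay above all controls in 4 of the 10 genes tested, *Tcf12* among them, and below in 1 (against 8.2% and 8.31% of all genes). The median was below 0 in DESeq2 (-0.061), in edgeR with no filter (-0.054) and with at least 10 counts required in every library (-0.034).

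Of 10 genes of homeobox, Eya and Dach families that act upstream of the MRFs, 5 were tested and 0 called, against 0.784% of all genes tested. At an unadjusted p under 0.05 the number was 0, against 11.9% of all genes, and limma-voom and DESeq2 called 0. There were 4 positive and 1 negative log2 fold changes, with a median of 0.076. Without cKO 1 there were 2 positive and 3 negative values with a median of -0.093, so the direction of this list rests on that library. All cKO libraries lay above all controls in 1 of the 5 genes tested and below them in 0 (against 8.2% and 8.31% of all genes). *Six4* (log2 fold change 0.15 ± 0.23, SE) and *Six2* (-0.26 ± 0.25, SE) overlapped between the groups.

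Of 20 cofactors and chromatin partners of the MRFs and MEF2, 14 were tested, 0 were called higher and 1 lower, with a median of 0.039. Of all genes tested, 0.784% were called. At an unadjusted p under 0.05 the number was 3, against 11.9% of all genes. All cKO libraries lay above all controls in 1 gene and below them in 2 (against 8.2% and 8.31% of all genes). The gene called lower was *Vgll3*, which encodes a vestigial-like cofactor of TEAD factors, a family that also acts in muscle. It had 72, 168 and 119 counts in control, against 80, 60 and 52 counts in cKO-labelled libraries. The means were 144 ± 42.0 and 83.2 ± 16.6 CPM (SD, n = 3 per group), and all cKO libraries lay below all controls, though cKO 1 lay just below control 1. The log2 fold change was -0.80 ± 0.18 (SE, edgeR adjusted p = 0.0136). The call did not hold in DESeq2 (adjusted p = 0.108), and in edgeR it did not hold without control 2 (-0.56, adjusted p = 0.162), without cKO 2 (-0.77, adjusted p = 0.317) or without cKO 3 (-0.69, adjusted p = 0.149). It was also lost in edgeR with total counts only (adjusted p = 0.0556) and with the replicate block (adjusted p = 0.0684), and under cyclic loess in limma (adjusted p = 0.0603). Over all alternative fits the adjusted p of *Vgll3* ran from 2.3e-04 to 0.317. The most abundant genes of the list were *Smarca4* (log2 fold change 0.049), an ATPase of the SWI/SNF complex, *Prmt5* (-0.26), an arginine methyltransferase, and *Kdm1a* (0.057), a histone demethylase, none of which was called. The class IIa deacetylases, named after their values were seen, were not called either. *Hdac5* had a log2 fold change of 0.53 ± 0.21 (SE, edgeR adjusted p = 0.266) and *Hdac7* one of -1.05 ± 0.42 (SE, edgeR adjusted p = 0.261). All cKO libraries lay below all controls for *Hdac7*, which passed the filter only through the control libraries. *Hdac4* had a log2 fold change of 0.13 ± 0.40 (SE, edgeR adjusted p = 0.941), and *Hdac9*, with 0 or 1 counts per library, did not pass the filter.

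Genes of myogenic differentiation that are known as MRF or MEF2 targets had mostly positive log2 fold changes. Of 42 genes listed, 37 were analysed and 24 were tested, of which 21 had a positive and 3 a negative log2 fold change, with a median of 1.15 against 0.0021 over all genes tested. With at least 10 counts required in every library, 15 were tested (12 positive, 3 negative) and the median was 0.56. In DESeq2, where 37 were tested, it was 1.74. In 13 of the 24 all cKO libraries lay above all controls, against 8.2% of all genes, and in 0 of them below. The list passed the filter in part through the libraries in which its genes were high, and its genes varied together, so these counts are no test. Of the 24 genes, 3 were called by edgeR, all of them higher (against 0.784% of all genes tested), and 13 had an unadjusted p under 0.05 (against 11.9%). With 1 library left out, the number called higher was 10 without cKO 1, 5 without control 1, 5 without control 2, 2 without control 3, 3 without cKO 2 and 3 without cKO 3, it was 11 of 37 with no filter on low counts, and 0 were called lower in each of these edgeR fits. *Actn3*, an alpha-actinin of fast fibres, had 42, 44 and 70 counts in control, against 106, 125 and 107 counts in cKO-labelled libraries, or 64.0 ± 17.1 against 147 ± 16.0 CPM (SD, n = 3 per group). It rose by a log2 fold change of 1.20 ± 0.18 (SE, edgeR adjusted p = 1.0e-05), and the call held in edgeR without any single library. *Tnni2*, the fast troponin I, had 6, 2 and 4 counts in control, against 16, 24 and 12 counts in cKO-labelled libraries. Both *Tnni2* and *Smyd1* had passed the filter only through the cKO-labelled libraries, where they were high. Neither was tested when at least 10 counts were required in every library. The log2 fold change of *Tnni2* was 2.16 ± 0.45 (SE, edgeR adjusted p = 0.00459), and the call was lost without cKO 2 (1.84, edgeR adjusted p = 0.277), with adjusted p from 0.0010 to 0.277 over the alternative fits. *Smyd1*, a methyltransferase and myosin chaperone of striated muscle, had 13, 1 and 10 counts in control, against 20, 33 and 26 counts in cKO-labelled libraries. It rose by 1.77 ± 0.43 (SE, edgeR adjusted p = 0.0430). The call was lost without control 2 (1.20, edgeR adjusted p = 0.0835), without control 3 (1.93, edgeR adjusted p = 0.0921), without cKO 2 (1.57, edgeR adjusted p = 0.430) and without cKO 3 (1.77, edgeR adjusted p = 0.219). It was also lost with total counts only (edgeR adjusted p = 0.0565), with the replicate block (edgeR adjusted p = 0.283), in limma-voom (adjusted p = 0.160) and under cyclic loess in limma (adjusted p = 0.341), and the adjusted p ran from 2.7e-04 to 0.430 over the alternative fits.

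Other differentiation genes, chosen after their values were seen, had all cKO libraries above all controls without being called in the edgeR fit to all 6 libraries, though some alternatives called them. *Mymk*, which encodes the fusion protein myomaker, had 32, 8 and 20 counts in control, against 55, 116 and 54 counts in cKO-labelled libraries (log2 fold change 1.97 ± 0.65, SE, edgeR adjusted p = 0.370). *Acta1*, skeletal muscle actin, had 46, 57 and 80 counts against 133, 353 and 205 counts (2.01 ± 0.49, SE, edgeR adjusted p = 0.241), and its reads can be shared with other actin genes. It was called higher in DESeq2, with the replicate block, without cKO 1 and without cKO 2, and *Mymk* was called higher without control 2 and with no filter on low counts. *Myh3*, embryonic myosin heavy chain, had 1, 0 and 0 counts against 9, 35 and 4 counts and did not pass the filter, without which it was called higher. In *Mymk*, *Acta1* and *Myh3* cKO 2 was the highest library. The most abundant genes of the list behaved otherwise. *Chrna1*, the acetylcholine receptor alpha subunit, had 1684 ± 241 CPM in control, against 1475 ± 246 CPM in cKO-labelled libraries, *Cdkn1a*, which encodes the cell cycle inhibitor p21, 767 ± 97.3 and 699 ± 94.3 CPM, and *Des* 527 ± 97.2 and 564 ± 44.0 CPM (SD, n = 3 per group), each with overlap. The summed level of the list was 5131, 3688 and 4658 CPM in control, against 5104, 6003 and 5205 CPM in cKO-labelled libraries, again lowest in control 2 and highest in cKO 2.

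RefSeq promoter windows of the same length were matched for 16 of the 24 differentiation genes tested. An E-box CANNTG was present in 11 of them (68.8%, against 66.2% of all windows) and the form CAGCTG, an E-box bound by MyoD and myogenin, in 7 (43.8%, against 13.0%). The MEF2 core was present in 3 (18.8%, against 8.56%) and the MEF3 letters in 0. Of the genes called, *Smyd1* had a window in RefSeq, which held none of these letters. The genes were listed as known MRF or MEF2 targets, so these shares are no test of such sites. Each gene counted with its first listed window, whereas the comparison used all 32851 windows, of 27025 genes. These shares describe the sequences and say nothing on binding in these cells.

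**Figure D4:**
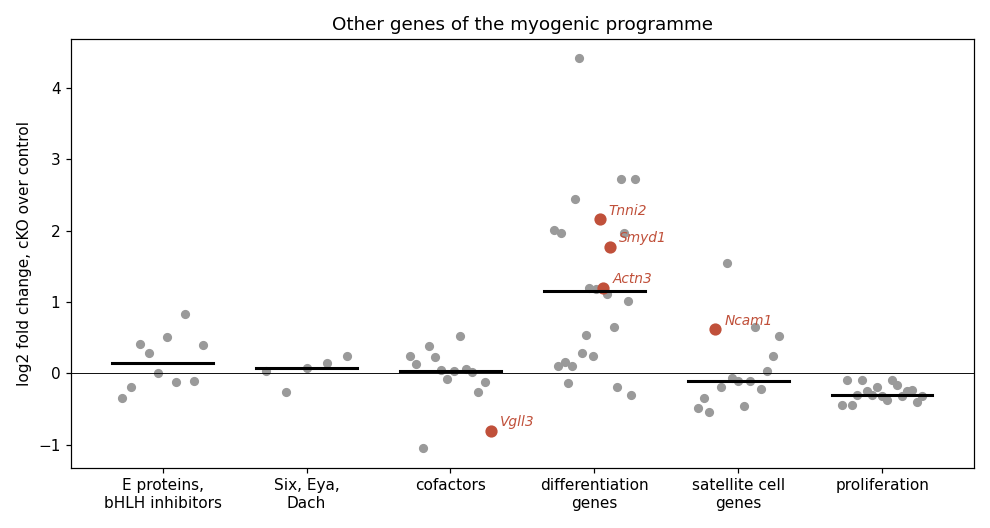
Log2 fold change (cKO-labelled libraries over control, edgeR) of each tested gene in 6 lists, with 1 point per gene, a black bar at the list's median and red points with names for genes with an adjusted p under 0.05. The differentiation genes have a median of 1.15 and a wide spread, the proliferation genes a median of -0.30 with all 17 below 0, and the partners of the MRFs lie around 0.

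Satellite cell genes did not move in 1 direction. Of 22 listed, 21 were analysed and 15 were tested, with 1 called higher by edgeR, 0 called lower and a median of -0.10 (6 positive, 9 negative). Of all genes tested, 0.784% were called in either direction. At an unadjusted p under 0.05 the number was 7 of 15 in edgeR, against 11.9% of all genes tested, and all cKO libraries lay above all controls in 4 and below them in 4 (against 8.2% and 8.31% of all genes). The median was above 0 in DESeq2 (0.024) and in edgeR with no filter on low counts (0.032), where all 21 were tested. It was also above 0 over the 17 genes tested without control 1 (0.016) and the 17 tested without control 3 (0.025). *Sdc4*, a heparan sulfate proteoglycan of the cell surface that was named after its values were seen, had 254 ± 53.2 CPM in control, against 176 ± 32.1 CPM in cKO-labelled libraries (SD, n = 3 per group), with a log2 fold change of -0.53 ± 0.15 (SE, edgeR adjusted p = 0.0609). It was called lower by edgeR with no filter, with at least 10 counts required in every library, and without control 1, control 3 or cKO 1. In some of the leave-one-out fits *Hey1*, named after its values were seen, was called higher (without control 1 and without cKO 1), as was *Cdh15* (without control 3). *Hey1* had 8, 6 and 2 counts in control, against 11, 23 and 11 counts in cKO-labelled libraries, and passed the filter only through the latter. With all 6 libraries its log2 fold change was 1.55 ± 0.45 (SE, edgeR adjusted p = 0.0817). *Ncam1*, a cell adhesion molecule that increases as myoblasts differentiate, had 117, 152 and 169 counts in control, against 177, 206 and 250 counts in cKO-labelled libraries. It rose by 0.62 ± 0.14 (SE, edgeR adjusted p = 0.0110), from 179 ± 17.7 to 276 ± 53.6 CPM (SD, n = 3 per group). This call was lost without control 1 (0.58, edgeR adjusted p = 0.0529), without cKO 2 (0.63, edgeR adjusted p = 0.164), without cKO 3 (0.46, edgeR adjusted p = 0.321) and with the replicate block (0.62, edgeR adjusted p = 0.0556), and in DESeq2 the adjusted p was 0.0911 (2.8e-04 to 0.321 over the alternative fits). *Tnfrsf12a*, *Itgb1* and *Cd9*, the most abundant genes of the list, had log2 fold changes of -0.34, -0.19 and -0.11 and were not called. *Vcam1* had 140 ± 14.6 CPM in control and 102 ± 15.5 CPM in the cKO-labelled libraries, and *Cdh15* 105 ± 30.8 and 152 ± 12.4 CPM (SD, n = 3 per group). Neither passed the threshold, at edgeR adjusted p = 0.185 and 0.118, although the libraries of each were apart.

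All 17 proliferation genes were tested and 0 were called by edgeR, limma-voom or DESeq2 on all 6 libraries, against 0.784% of all genes in edgeR. All 17 had a negative log2 fold change, from -0.44 to -0.092 with a median of -0.30, against 0.0021 over all genes tested. Without control 2, and again without control 3, 16 were negative and 1 positive. At an unadjusted p under 0.05 the number was 7, against 11.9% of all genes. Whether these genes varied independently was not tested, so these counts are no test. The median was -0.15 without cKO 2, -0.19 without control 2 and -0.38 without cKO 1, and in the last of these edgeR fits *Mcm5* and *Aurkb* were called lower, both named after their values were seen. In 5 of the 17 all cKO libraries lay below all controls, against 8.31% of all genes. *Rrm2*, a subunit of ribonucleotide reductase, had 1412 ± 104 CPM in control, against 1192 ± 195 CPM in cKO-labelled libraries. *Ccnd1*, cyclin D1, had 574 ± 88.4 and 460 ± 67.9 CPM, and *Ccnb1*, cyclin B1, 419 ± 0.995 and 373 ± 81.0 CPM (SD, n = 3 per group). The summed level of the list was 5065, 5464 and 5049 CPM in control, against 4924, 3781 and 4309 CPM in cKO-labelled libraries. Control 2 was thus the highest and cKO 2 the lowest for proliferation genes and for *Pax7*, and the reverse held for *Myog* and for the differentiation genes. Total counts were also highest in control 2 and lowest in cKO 2, and the part of depth in these patterns was not tested.

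Markers of other cell types were given for comparison. Of 6 endothelial markers 4 were analysed, with a summed level of 14.4, 5.58 and 1.18 CPM in control and 3.80, 5.28 and 18.6 CPM in the cKO-labelled libraries, and *Tek* as the most abundant. Of 6 haematopoietic markers 3 were analysed, with 10.1, 27.9 and 13.0 CPM against 10.1, 14.5 and 10.6 CPM and *Cd68* as the most abundant. Of 5 Schwann cell markers all were analysed, with 12.9, 10.0 and 7.08 CPM against 10.1, 2.64 and 5.30 CPM and *Mbp* as the most abundant. Of 7 fibro-adipogenic markers 6 were analysed, with 198, 200 and 350 CPM against 285, 308 and 269 CPM, mostly from *Col3a1* (log2 fold change 0.41 ± 0.16, SE, edgeR adjusted p = 0.265, with overlap). Within this list *Dcn*, a proteoglycan of connective tissue, had 18, 23 and 37 counts in control, against 8, 5 and 3 counts in cKO-labelled libraries and fell by 2.17 on the log2 scale (edgeR adjusted p = 3.9e-04). *Dcn* had passed the filter only through the control libraries, where it was high. It was not tested when at least 10 counts were required in every library, and it received no adjusted p in DESeq2. *Ly6a*, which encodes the Sca1 antigen that the sort selected against and was named after its values were seen, had 2, 2 and 3 counts in control, against 5, 8 and 9 counts in cKO-labelled libraries, with no overlap in CPM, and did not pass the filter. Of 6 smooth muscle and pericyte markers 5 were analysed, with 50.3, 35.7 and 44.9 CPM against 65.9, 64.7 and 91.4 CPM and *Cspg4* as the most abundant. The last list was higher in all cKO-labelled libraries, as *Myog* and *Mef2a* were, and its part in their levels was not tested.

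**Figure D5:**
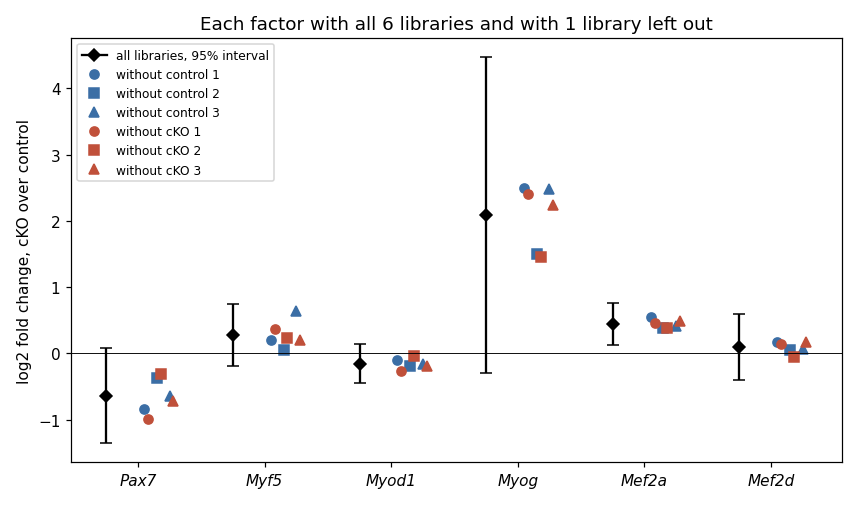
Log2 fold change (cKO-labelled libraries over control, edgeR) of the 6 factors tested, with all libraries (black diamonds, bars for the 95% interval) and with each library left out in turn (coloured symbols). *Mef2a* stays between 0.38 and 0.55 and *Myog* between 1.45 and 2.49, with its lowest values without control 2 or cKO 2, and *Mef2d* crosses 0.

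With each library left out in turn, 0 of the members tested passed the threshold in edgeR in any of the 6 fits. *Pax7* had values from -0.99 without cKO 1 to -0.30 without cKO 2, *Myf5* from 0.059 to 0.64, *Myod1* from -0.26 to -0.038, and *Mef2a* from 0.38 without control 2 to 0.55 without control 1. The signs of these 4 genes were kept in all 6 fits.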

How the data were processed

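Total RNA (500 pg per library) was reverse transcribed by the authors with barcoded oligo-dT primers that carry unique molecular identifiers, amplified by 12 cycles of PCR and sequenced, and reads were mapped with STAR 2.7.9a to GRCm38, assigned with featureCounts 2.0.1 and counted with UMI-tools 1.1.1. The deposited values are these counts per gene, not normalised, with 1 column per library. Strand and multimapping settings are not given in the sources used here. The control group holds the samples labelled wild type.

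Counts were analysed with edgeR 4.0.16 in R 4.3.3 (TMM, filterByExpr with a minimum count of 10, robust quasi-likelihood F-test, Benjamini-Hochberg adjustment over the 8551 genes kept). Alternatives were DESeq2 1.42.0, voom and cyclic loess in limma 3.58.1, other scalings and filters, a replicate block, and each library left out. Single values were compared by exact permutation tests, and pooled counts and shares by exact 95% intervals, which, like the floor of 3 counts, cover counting error only. The calculations were tested on simulated counts. Likeness used log2 CPM with a prior count of 2. Positions and shared 31-base words came from GENCODE.

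The members and the gene lists were chosen with earlier results of these data known. The genes named are the members, *Mef2b*, *Piezo1*, the label markers, the genes of each list that edgeR called, and the 5 genes most like each member. Also named are the 3 most abundant tested genes of each list and the genes that overlap a member. For markers of other cell types the most abundant gene is named, whether tested or not. The text marks any further gene as picked with its values known. Some genes that this rule names are not reported here.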

Additional observations from a re-analysis of the deposited data

How the results depend on the processing

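No member had an adjusted p under 0.05 in any of the 14 alternative fits in which it was tested, and *Pax7* and *Myog* were not tested when at least 10 counts were required in every library. *Myod1* changed sign under cyclic loess (0.090) and *Mef2d* without cKO 2 (-0.057, up to 0.18 without cKO 3), and the cause was not tested. The other members kept their direction in every fit that tested them. The log2 fold change of *Myog* ran from 1.45 without cKO 2 to 2.71 in limma-voom, with adjusted p from 0.385 to 0.820. The number of genes called moved from 67 to 27 in DESeq2, 32 under cyclic loess and 129 with no filter on low counts, where more genes were tested, and from 6 (without cKO 2) to 174 (without cKO 1) with 1 library left out. Of the calls, 59.7% were higher in edgeR with TMM, 73.1% with total counts only and 44.4% in DESeq2 (12 higher, 15 lower). DESeq2 was the only fit with fewer genes called higher than lower. With the names of the groups exchanged, the DESeq2 split would be 15 higher and 12 lower, which is the split in the paper's legend. Such an exchange was not tested. With 1 library left out, the median of the E proteins and inhibitors ran from 0.044 (without control 2) to 0.21 (without control 1), that of the differentiation genes from 0.83 to 1.26, that of the proliferation genes from -0.38 to -0.15, that of the homeobox, Eya and Dach genes from -0.093 to 0.19 and that of the cofactors from -0.032 to 0.072. The median of the differentiation genes was 0.56 with at least 10 counts required in every library and 1.74 in DESeq2. Same-numbered libraries of the groups did not deviate together (correlations -0.143, -0.203 and 0.0121), and no library correlated best with its own number. In the fit with a replicate block, 46 genes were called, 36 of them among the 67, and *Myog* had a log2 fold change of 2.01 (edgeR adjusted p = 0.745). Depth limits *Pax3*, *Myf6* and *Mef2c*, whose counts were between 0 and 8 in every library.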
